A study of Mus musculus with 2 samples.

Results

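The cells described here are the LSK cells (lineage-negative, Sca-1-positive, c-Kit-positive bone marrow cells, the fraction that holds the blood stem cells and the first multipotent progenitors) that carried little CD150 and little CD48 on their surface. They were taken from a CITE-seq experiment, in which droplets capture the mRNA of each cell together with the DNA tags of antibodies bound to it. The cells were selected on these tags alone: in each library, a kept cell (under 10% mitochondrial UMIs and over 1500 genes) was taken if its CD150 tag fell below the 75th percentile and its CD48 tag did not exceed the 25th. They were 454 of the 3986 kept cells with tags, 204 of 1497 cells with barcode suffix 1 (13.6%) and 250 of 2489 cells with barcode suffix 2 (10.0%).

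One LSK sample came from old and one from young C57BL/6JRj mice, aged 22-28 months and 3-5 months. The labels name no allele and no treatment. By the study's methods the cells of each age came from several mice, and no label separates the mice within a library. The matrix marks its 2 libraries only by the suffix of the barcode, and no label pairs a suffix with an age, so old and young cells were not compared and each library is given by itself. No barcode was shared between the libraries. With 1 library per age there is no replicate, so no test was made, and the intervals below are exact 95% intervals that cover counting error only.

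Blood stem cells are classically divided by the SLAM receptors: CD150 is found on long-term stem cells and is lost as self-renewal narrows, and CD48 is gained as cells become multipotent progenitors. Cells that lack both are described as short-term stem cells or as the earliest multipotent progenitors, which give multilineage but short-lived grafts. The surface proteins CD34 and then FLT3 are gained along the same path, whereas EPCR, the product of Procr, is kept by the stem cells at its top.

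The tag values that chose the cells differed strongly between the libraries. The CD150 threshold was 40 tags with suffix 1 and 407 tags with suffix 2, and the CD48 threshold was 224 and 42 tags. With suffix 1 the CD150-low CD48-low cells had a median of 4.5 CD150 tags and 152 CD48 tags, whereas with suffix 2 they had 84.5 CD150 tags and 23 CD48 tags. The CD48-high cells, those above the CD48 threshold, had medians of 6 and 8 CD150 tags, so that with suffix 2 the gate named CD150-low held more CD150 than the CD48-high cells did. The highest CD150 value in the gate was 39 and 406 tags and the lowest in the CD150-high CD48-low gate 40 and 407 tags. On the CD48 axis the gate ended at 224 and 42 tags and the CD48-high cells began at 225 and 43 tags, and 27 and 37 cells of the gate lay within 10% of that threshold.

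**Figure D1:**
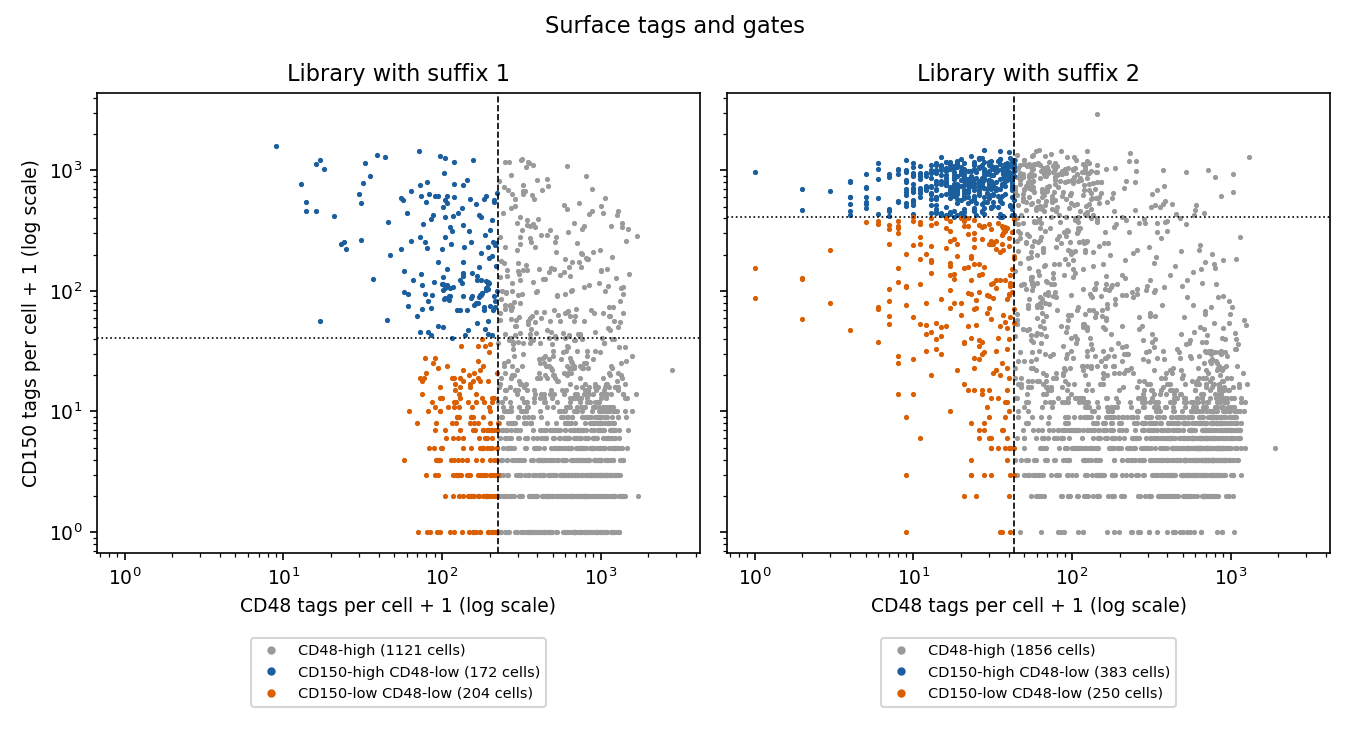
CD48 tags (x axis) and CD150 tags (y axis) per cell, each with 1 added and on a log scale, for the cells of each library; dashed and dotted lines mark the CD48 and CD150 thresholds. With suffix 1 the 204 orange cells (CD150-low CD48-low) lie at 0 to 39 CD150 tags, and with suffix 2 the 250 orange cells spread from 0 to 406 CD150 tags.

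The gate was shallower than the cells around it. Its median was 11943 and 11203 UMIs (unique molecular identifiers, counted mRNA molecules) per cell, against 12917 and 13477 in the CD150-high CD48-low gate and 17056 and 16130 in the CD48-high cells. It summed to 2526611 and 2879196 UMIs. Its median mitochondrial share was 6.52% and 6.51%, against 5.86% to 6.71% in the other gates. Tags that matched no antibody were also fewest in the gate, with medians of 19 and 11 per cell against 31 and 40 in the CD150-high CD48-low gate and 49 and 25 in the CD48-high cells; their part in the results was not tested. When each cell's tags were taken relative to its unmapped tags before gating, 103 of 161 and 67 of 142 cells of the resulting gate were cells of the gate described here. Leaving out the cells with the lowest 10% of unmapped tags in each library left 100 of the 204 and 158 of the 250 cells of the gate.

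The marker genes set for the label were Cd34 and Procr, whose transcripts took no part in the gate. Cd34 (GRCm38, chr1:194938819-194961279, plus strand) encodes a sialomucin that appears as stem cells enter the short-term pool. Its level was 475 CPM (UMIs summed over the cells of a gate and scaled to the same total in every gate) in the gate with suffix 1, against 202 in the CD150-high CD48-low cells and 537 in the CD48-high cells. With suffix 2 it was 125, against 40.3 and 433. Cd34 in the gate was therefore 2.36-fold (2.12 to 2.63) and 3.1-fold (2.61 to 3.69) that of the CD150-high CD48-low cells. It was 0.885-fold (0.833 to 0.939) that of the CD48-high cells with suffix 1 and 0.288-fold (0.259 to 0.320) with suffix 2. The suffix 2 ratios moved with the gate. With CD150-low set under the 50th percentile Cd34 was 5.70-fold that of the CD150-high CD48-low and 0.530-fold that of the CD48-high cells, and with tags taken relative to unmapped tags it was 1.70-fold and 0.160-fold.

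Procr (GRCm38, chr2:155751117-155755471, plus strand) encodes the endothelial protein C receptor EPCR. Its level in the gate was 106 CPM with suffix 1, between 115 in the CD150-high CD48-low cells and 42.0 in the CD48-high cells. With suffix 2 it was 199, between 246 and 73.0. The gate thus held 2.51-fold (2.19 to 2.88) and 2.73-fold (2.49 to 2.99) the Procr level of the CD48-high cells, while its ratio to the CD150-high CD48-low cells was 0.922 (0.774 to 1.10) and 0.811 (0.734 to 0.896).

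Flt3 (GRCm38, chr5:147330741-147400489, minus strand), which encodes the cytokine receptor CD135 of multipotent and lymphoid-primed progenitors, stood at 151 CPM in the gate with suffix 1, against 13.3 in the CD150-high CD48-low and 217 in the CD48-high cells. With suffix 2 it stood at 17.4, against 2.09 and 130. With tags taken relative to unmapped tags Flt3 was at 160 against 26.6 and 225 with suffix 1 and at 11.6 against 3.09 and 132 with suffix 2; with CD150-low under the 50th percentile it was at 34.2 against 2.09 and 130 with suffix 2. The transcripts of the gating proteins followed the tags, as the rule made them: Slamf1 (CD150; GRCm38, chr1:171767127-171801184, plus strand) was at 1.19 and 11.1 CPM in the gate and at 16.9 and 64.2 in the CD150-high CD48-low gate. Cd48 (GRCm38, chr1:171682009-171705258, plus strand) was at 7.52 and 2.78 in the gate and at 87.4 and 119 in the CD48-high cells.

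**Figure D2:**
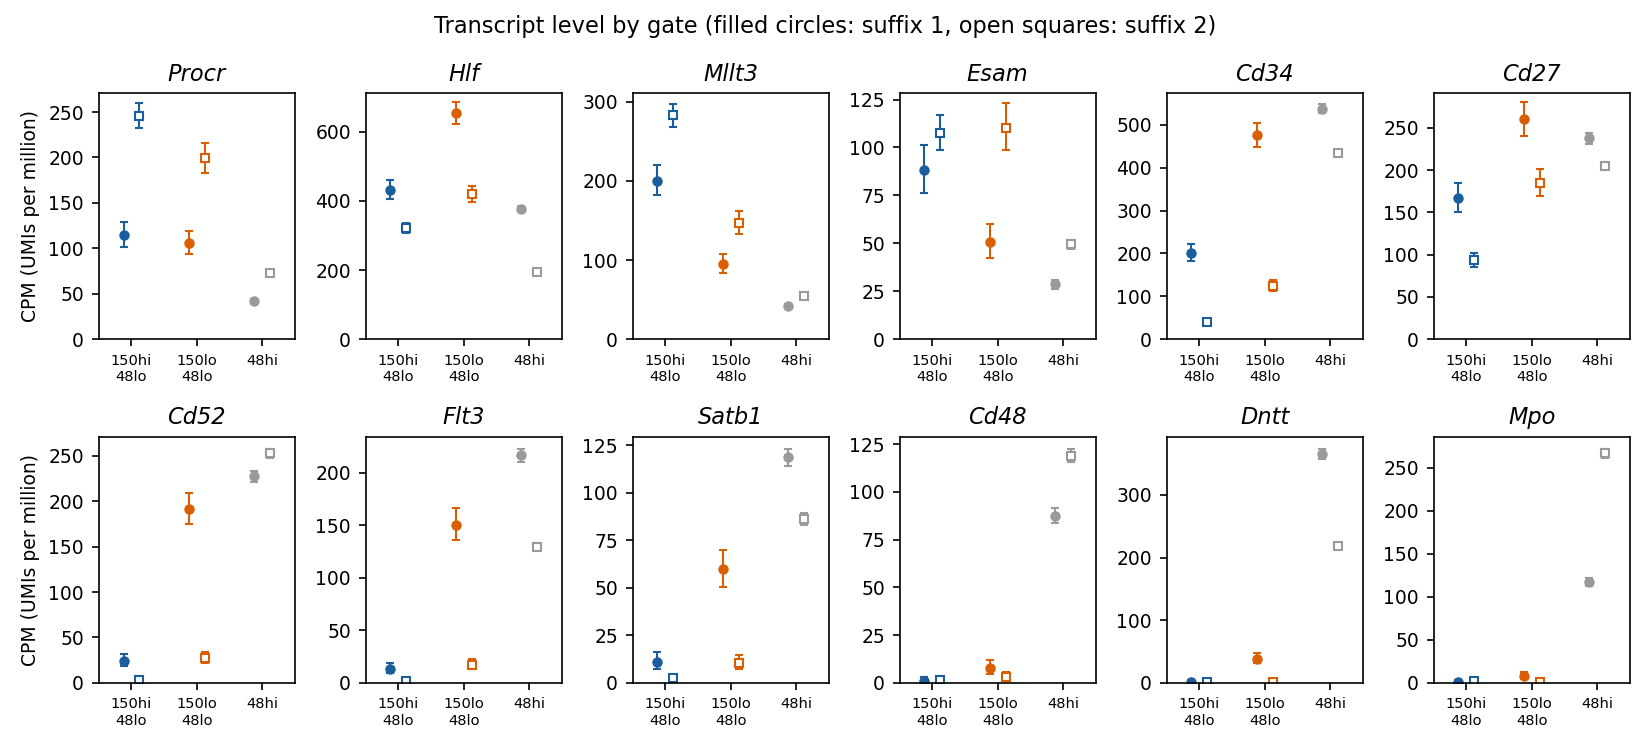
Level of 12 genes in CPM (y axis) in the 3 gates (x axis) of each library, with exact 95% Poisson intervals for counting error. Procr, Hlf, Mllt3 and Esam in the orange gate lie above the grey CD48-high level in both libraries, and Cd34, Cd52, Flt3 and Satb1 lie above the blue CD150-high CD48-low level.

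In single cells thinned to 8000 UMIs, 96.7% (93.0 to 98.8) of the gate's cells with suffix 1 and 52.3% (45.5 to 59.0) of those with suffix 2 had a Cd34 UMI (96.1% and 56.0% without thinning). Procr was seen in 58.2% (50.7 to 65.5) and 71.6% (65.2 to 77.5) of them, and Flt3 in 63.7% (56.3 to 70.7) and 12.6% (8.55 to 17.7); without thinning these shares were 66.2% and 78.8% for Procr and 69.1% and 15.6% for Flt3. The Flt3 share in the CD150-high CD48-low cells, at 6.88% and 2.14%, was lower than in the gate in both libraries. Thinning left out 22 and 28 cells of the gate.

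Cd34 and Procr were seen together in 56.0% and 36.0% of the gate's cells, against 34.4% and 23.3% of the CD150-high CD48-low cells and 26.7% and 29.5% of the CD48-high cells. With suffix 2, 79 of 222 cells of the gate had Procr and no Cd34, and 27 had neither. In each library a marker of the label went unseen in many cells: Procr was seen in 106 of 182 cells with suffix 1 and Cd34 in 116 of 222 with suffix 2. The cells are therefore called by their gate here and not by a cell type. Of the genes of committed cells, Mpo, a granule enzyme of myeloid progenitors, was seen in 5.49% and 0.901% of the gate's cells. Dntt, the terminal transferase of lymphoid progenitors, was seen in 7.14% and 1.35%. Gata1, which drives red cell and platelet development, was seen in 0 of 182 thinned cells with suffix 1, which at a floor of 3 counts allows a share of cells with a UMI of up to 1.65%, and in 1 of 222 with suffix 2; without thinning it was seen in 1 of 204 cells with suffix 1. In the CD48-high cells 23.1% had Mpo and 39.6% had Dntt with suffix 1, and 30.1% and 23.65% with suffix 2.

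Across all genes, a gene was called when its summed CPM, with 10 added, differed by at least 1.5-fold the same way in both libraries, among 8234 genes at 10 or more CPM over all kept cells with tags. Against the CD150-high CD48-low gate 51 genes were higher (0.619% of those counted) and 16 were lower (0.194%). With no filter on low genes 53 were higher and 48 were lower. Against the CD48-high cells 80 were higher (0.972%) and 317 were lower (3.85%). The CD48-high cells were 74.9% and 74.6% of the cells, so a gene could pass the filter of 10 CPM through them alone, which favours lower calls against them. No gene (0%) was called higher or lower than in both other gates at once. The median log2 ratio over all counted genes was -0.00026 and 0.05 against the CD150-high CD48-low gate and -0.02 and -0.04 against the CD48-high cells. In a single library 141 genes were higher (1.71%) and 103 lower (1.25%) than in the CD150-high CD48-low gate with suffix 1, and 161 (1.96%) and 41 (0.498%) with suffix 2. Against the CD48-high cells these counts were 114 (1.38%) and 364 (4.42%) with suffix 1 and 280 (3.4%) and 578 (7.02%) with suffix 2. With tags taken relative to unmapped tags the counts were 10 higher and 1 lower, and 32 higher and 41 lower. When the cell with the most UMIs of a gene was left out of each gate, a check added after the values were seen, 44 of the 51 and 14 of the 16 genes kept their call against the CD150-high CD48-low gate, and 59 of the 80 and 316 of the 317 against the CD48-high cells. With that cell left out of the CD150-low CD48-low gate alone, these numbers were 38 and 16, and 58 and 317.

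**Figure D3:**
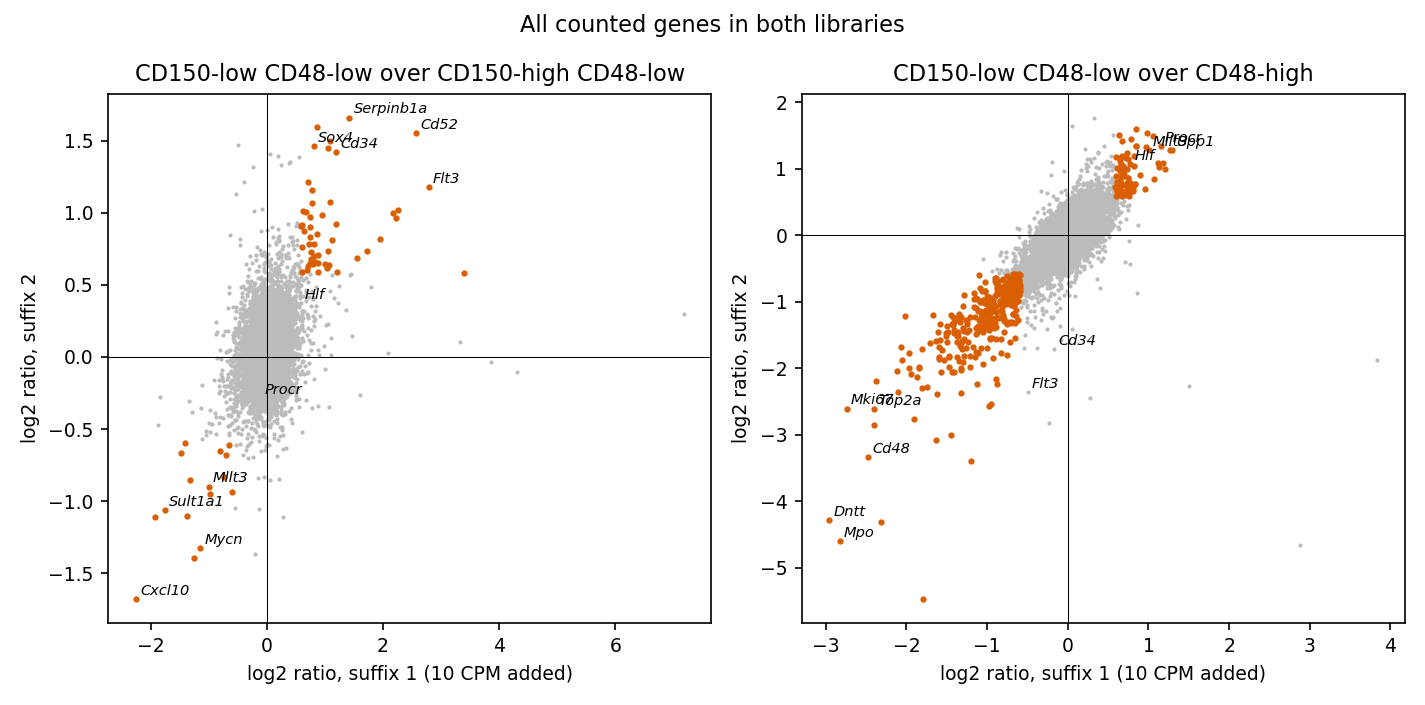
Log2 ratio of the CD150-low CD48-low gate over the CD150-high CD48-low gate (left) and over the CD48-high cells (right), with suffix 1 on the x axis and suffix 2 on the y axis, 1 point per counted gene and called genes in orange. On the left 51 genes are called higher and 16 lower; on the right 80 are called higher and 317, Dntt, Mpo and Mki67 among them, lower.

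The genes most clearly higher than in the CD150-high CD48-low gate were ranked by the smaller of the 2 log2 ratios. The first 12 included Cd52, Serpinb1a, Cd34, Flt3, Cd37, Nkg7, Plac8, Tespa1, Ccl3, Runx3 and Ncf4. Cd52, a small glycoprotein of lymphocytes, was at 192 and 27.1 CPM in the gate against 24.0 and 2.66, a ratio of 7.99 (6.02 to 10.8) and 10.2 (5.73 to 19.5). One cell held 25.2% of the gate's Cd52 UMIs with suffix 1. Serpinb1a, an inhibitor of neutrophil proteases, was at 148 and 64.2 against 48.8 and 13.5. Both genes were ranked on these same ratios, so the gap between their counting intervals in the 2 gates adds no support.

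Cd37, a tetraspanin of lymphocytes, was at 162 and 68.1 CPM against 70.6 and 17.7. Plac8, a gene of early lymphoid and myeloid progenitors, was at 378 and 91.3 against 71.0 and 40.1. Tespa1, a signalling adaptor of T-cell development, was at 51.1 and 10.8 against 3.55 and 0.380. Cd37, Plac8 and Tespa1 were higher still in the CD48-high cells, except Cd37 with suffix 1: Plac8, for example, reached 877 and 1058 there.

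The genes most clearly lower than in the CD150-high CD48-low gate included Cxcl10, Gas2l3, Mycn, Apoe, Bex4, Sult1a1, Trim47, Mllt3, Socs2, Bex1 and Tgm2. Mllt3, a chromatin reader that maintains stem cells, was at 95 and 147 CPM in the gate against 200 and 283 in the CD150-high CD48-low cells and 42.3 and 54.9 in the CD48-high cells, that is, between them in both libraries. Mycn, a proto-oncogene of the Myc family, was at 51.1 and 106 against 126 and 279, a ratio of 0.406 (0.327 to 0.502) and 0.378 (0.333 to 0.428).

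Socs2, a suppressor of cytokine receptor signalling, was at 11.1 and 38.2 CPM in the gate against 42.6 and 77.1 in the CD150-high CD48-low cells. Apoe, the lipid carrier apolipoprotein E, was at 122 and 550 against 492 and 1197. Sult1a1, a sulfotransferase, differed more between the libraries than between the gates, at 16.6 and 430 in the gate against 79.9 and 908. Cxcl10, an interferon-induced chemokine, was at 5.94 and 16.0 against 66.2 and 73.1. A single cell held 40.0% and 63.0% of the gate's Cxcl10 UMIs. Its call was lost with the top cell left out of each gate, but not with it left out of the CD150-low CD48-low gate alone.

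The genes most clearly higher than in the CD48-high cells were Upp1, Hbb-bt, Procr, Ltb, Abcg3, Creb5, Iigp1, Mllt3, Gm4951, Meg3, Hacd4 and Lst1. Upp1, the uridine phosphorylase, was at 42.8 and 77.5 CPM in the gate, 49.3 and 60.2 in the CD150-high CD48-low gate and 11.5 and 25.9 in the CD48-high cells. Ltb, the cytokine lymphotoxin beta, was at 330 and 247 in the gate against 140 and 111 in the CD48-high cells. Meg3, an imprinted non-coding RNA of long-term stem cells, was at 45.5 and 77.5 against 18.1 and 20.1. Upp1 and Ltb in the gate thus lay 2.23- to 3.71-fold above the CD48-high cells and 0.867- to 1.35-fold relative to the CD150-high CD48-low cells.

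Below the CD48-high cells stood Dntt, Mpo, Mki67, Cd48, Top2a, Pclaf, Ctsg, Hist1h1b, Spc24, Tk1, Nusap1 and Aurkb, of which Cd48 encodes the protein that set the gate. Dntt was at 38.4 and 1.74 CPM in the gate against 366 and 219, and one cell held 26.8% of the gate's Dntt UMIs with suffix 1. Mpo was at 7.92 and 1.39 against 117 and 267. Mki67, the proliferation antigen Ki-67, was at 23 and 17.7 against 210 and 159, and one cell held 29.3% and 49.0% of the gate's Mki67 UMIs.

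Of the long-term stem cell genes, 19 of 25 were counted. Against the CD48-high cells 11 were higher (Procr, Hlf, Mllt3, Pdzk1ip1, Esam, Tgm2, Ifitm1, Ndn, Cdkn1c and Txnip among them) and none (0) were lower, with a median log2 ratio of 0.65 and 1.07 beside -0.02 and -0.04 over all counted genes; of all counted genes 0.972% were higher and 3.85% lower. Against the CD150-high CD48-low gate 1 was higher, the lipoprotein receptor gene Vldlr, and 3 were lower, Mllt3 and Tgm2 among them, beside 0.619% and 0.194% of all counted genes, with a median of -0.66 and -0.37. Without the top cells the calls of Vldlr, and of Tgm2 against the CD48-high cells, were lost. Their summed level was 1.57-fold (1.54 to 1.60) and 1.83-fold (1.8 to 1.85) that of the CD48-high cells and 0.857-fold (0.837 to 0.877) and 0.798-fold (0.786 to 0.810) that of the CD150-high CD48-low cells.

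Hlf, a transcription factor that keeps stem cells in their undifferentiated state, stood above both other gates. It was at 653 and 419 CPM in the gate, above both the 432 and 322 of the CD150-high CD48-low cells and the 378 and 194 of the CD48-high cells. The ratio to the CD150-high CD48-low cells was 1.51 (1.40 to 1.64) and 1.30 (1.21 to 1.40), and that to the CD48-high cells 1.73 (1.64 to 1.82) and 2.15 (2.03 to 2.29). At a lower fold of 1.2, chosen after the values were seen, 20 genes (0.243%) were higher than in both other gates and 7 (0.085%) were lower.

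Among the 20 besides Hlf were Shisa5, the interferon-related genes Igtp, Ddx60 and Trim30d, the cytokine gene Il18, the chemokine gene Ccl4 and the inhibitory receptor gene Cd200r1. Shisa5, a membrane protein of the endoplasmic reticulum, was at 397 and 358 CPM in the gate, against 299 and 285 in the CD150-high CD48-low and 218 and 205 in the CD48-high cells. The 7 lower genes were Bcl2, Lin9, C330007P06Rik, Nsd2, Polr3e, Acaca and Ttc7b. Not all lay outside counting error: the ratio of Acaca to the CD150-high CD48-low gate with suffix 2 had an interval of 0.382 to 1.026. Bcl2, the survival factor, was at 53.0 and 53.5 in the gate against 69.3 and 93.4 and against 96.3 and 86.7.

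All 12 genes of the short-term stem cell and multipotent progenitor list were counted. Against the CD150-high CD48-low gate 8 were higher (Cd34, Cd27, Flt3, Cdk6, Sox4, Runx2, Satb1 and Plac8) and none (0) were lower, with a median log2 ratio of 0.76 and 0.84 beside -0.00026 and 0.05 over all counted genes, of which 0.619% were higher and 0.194% lower. Without the top cells 7 of the 8 kept their call, and that of Runx2 was lost. None (0) were higher than in the CD48-high cells and 4 were lower, Cd48, Cdk6, Satb1 and Plac8, beside 0.972% and 3.85% of all counted genes, with a median of -0.34 and -1.40. Cdk6, the kinase whose level sets how quickly a stem cell leaves quiescence, was at 184 and 147 CPM, between 108 and 81.3 in the CD150-high CD48-low and 335 and 453 in the CD48-high cells. Sox4, a transcription factor of lymphoid commitment, was at 658 and 387 in the gate against 372 and 134 in the CD150-high CD48-low and 572 and 556 in the CD48-high cells. Cd27, a receptor of the TNF receptor family, was at 260 and 185 in the gate against 166 and 93.6, and its ratio to the CD48-high cells was 1.09 (1.01 to 1.19) and 0.905 (0.828 to 0.989).

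Of the early lymphoid genes 13 of 20 were counted. Against the CD150-high CD48-low gate 6 were higher (Flt3, Satb1, Wfdc17, Il12a and Cd52 among them) and none (0) were lower, beside 0.619% and 0.194% of all counted genes. Without the top cells the call of Wfdc17 was lost. Ltb was the 1 gene higher than in the CD48-high cells, and 4 were lower, Dntt, Satb1 and Il12a among them, beside 0.972% and 3.85%. The median log2 ratio to the CD48-high cells was -0.24 with suffix 1 and -2.16 with suffix 2. Satb1, a genome organiser of lymphoid priming, was at 59.8 and 10.4 CPM in the gate against 11.1 and 2.28 in the CD150-high CD48-low and 119 and 86.1 in the CD48-high cells. The summed level of the list with suffix 1 rested on 1 cell with 65.1% of its UMIs on immunoglobulin genes. It was 3619 CPM with that cell and 1515 without it, against 699 in the CD150-high CD48-low gate.

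Of 15 counted early myeloid genes 1 was higher than in the CD150-high CD48-low gate, Nkg7, a granule protein, and none (0) were lower, with a median log2 ratio of 0.47 and -0.00 (all counted genes: 0.619% higher and 0.194% lower). In all 7 were lower than in the CD48-high cells (Mpo, Elane, Ctsg, Irf8, Cst7, Clec12a and Nkg7) and none (0) were higher, beside 3.85% and 0.972% of all counted genes. Prtn3, a granule protease gene with the highest level of the list, was at 591 and 796 CPM in the gate, 481 and 1004 in the CD150-high CD48-low and 544 and 733 in the CD48-high cells. Spi1, which encodes the myeloid and lymphoid master factor PU.1, was at 155 and 93.4 in the gate, 109 and 70.1 in the CD150-high CD48-low and 144 and 147 in the CD48-high cells. Of 12 counted erythroid and megakaryocyte genes 2 were higher than in the CD48-high cells, Hbb-bt among them, beside 0.972% of all counted genes, and Apoe was lower than in the CD150-high CD48-low gate, beside 0.194%.

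Most genes of dividing cells were lower in the gate than in the CD48-high cells. Of 28 counted S phase genes 25 were lower than in the CD48-high cells, and of 32 counted genes of G2 and mitosis 31 were lower, beside 3.85% of all counted genes. Their summed level was 0.431-fold (0.417 to 0.446) and 0.337-fold (0.325 to 0.349) that of the CD48-high cells for S phase, and 0.298-fold (0.287 to 0.309) and 0.197-fold (0.188 to 0.206) for G2 and mitosis. Top2a, the topoisomerase of mitotic cells, was at 54.6 and 37.2 CPM against 332 and 280. Mcm5, a subunit of the replicative helicase, was at 54.2 and 29.2 against 139 and 127.

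Against the CD150-high CD48-low gate none (0) of these S phase or mitotic genes was called in either direction. This is near the background, as 0.619% of all counted genes were higher and 0.194% lower. The libraries differed. The summed G2 and mitosis level was 0.961-fold (0.912 to 1.01) that of the CD150-high CD48-low cells with suffix 1 and 2.08-fold (1.94 to 2.22) with suffix 2. The S phase sum was 1.04-fold (0.988 to 1.09) and 1.58-fold (1.51 to 1.66). With suffix 2 a single cell held 35.5% of the gate's Top2a and 50.0% of its Birc5 UMIs. Of 14 counted G1 genes Cdk6 was higher than in the CD150-high CD48-low gate and none (0) were lower, beside 0.619% and 0.194% of all counted genes. Relative to the CD48-high cells 3 were lower (Cdk6, Rbl1 and E2f1), beside 3.85%, and 1 was higher, beside 0.972%, namely Cdkn1c, the p57 inhibitor of quiescent stem cells, at 26.5 and 67.4 CPM against 13.0 and 19.0.

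Among 32 counted stem cell transcription factors, Sox4 was higher and 2 were lower than in the CD150-high CD48-low gate, Mycn among them, beside 0.619% and 0.194% of all counted genes. Hlf was higher than in the CD48-high cells, beside 0.972%, and none (0) were lower, beside 3.85%. The medians of the log2 ratios were -0.06 and -0.00 to the CD150-high CD48-low gate and 0.23 and 0.41 to the CD48-high cells. Meis1, a HOX cofactor, was at 334 and 358 CPM in the gate and at 344 and 360 in the CD150-high CD48-low gate. Lmo2, a bridging factor of the stem cell complex, was at 1085 and 1144 against 1099 and 1181. Of 40 counted receptors 5 were higher than in the CD150-high CD48-low gate (Flt3, Cd34, Cd53 and Cd27 among them), beside 0.619% of all counted genes. Of the same 40, 4 were higher than in the CD48-high cells (Ly6a, Esam and Procr among them) and 4 lower (Cxcr4, Cd69 and Cd48 among them), beside 0.972% and 3.85% of all counted genes. Ly6a, which encodes the sorting marker Sca-1, was at 432 and 576 in the gate, 324 and 534 in the CD150-high CD48-low and 201 and 317 in the CD48-high cells.

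Of 28 counted interferon-stimulated genes 4 were higher than in the CD48-high cells, Ifit1, Rsad2, Igtp and Iigp1, beside 0.972% of all counted genes. Ifi27l2a was lower than in the CD48-high cells (3.85% of all genes) and higher than in the CD150-high CD48-low gate (0.619%). The 4 higher calls fell to 2, Igtp and Iigp1, without the top cells: one cell held 30.4% and 15.4% of the gate's Ifit1 UMIs and one held 38.3% and 22.2% of its Rsad2 UMIs. The call of Ifi27l2a against the CD150-high CD48-low gate was lost when the top cell was left out of the CD150-low CD48-low gate alone. Of 18 counted immediate early genes Jund and Klf2 were higher and Hspa1b was lower than in the CD48-high cells, beside the same 0.972% and 3.85%; 1 lower gene of 18 is near the share over all genes. Without the top cells the calls of Jund and Klf2 were both lost. Of 18 counted MHC genes the invariant chain Cd74 was higher than in the CD48-high cells, at 245 and 714 CPM against 156 and 444, beside 0.972% of all counted genes called higher, and one cell held 25.2% of the gate's Cd74 UMIs with suffix 1. Without the top cells Cd74 was at 184 CPM against 132 with suffix 1 and at 694 against 429 with suffix 2, and the call was lost.

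None (0) of 15 counted glycolysis genes was called in either comparison, and with all-gene shares of 0.194% to 3.85% this is near the background. Of the Hippo pathway, which the study followed through its effector TAZ, 7 of 19 genes were counted and none (0) was called, which is likewise near the background. Wwtr1, which encodes TAZ, was at 0.396 and 16.0 CPM in the gate, 4.88 and 26.6 in the CD150-high CD48-low and 0.807 and 5.19 in the CD48-high cells. With suffix 1 its level in the gate rested on 1 UMI. Clca3a1, a chloride channel regulator followed in the study as a surface marker, was at 0.396 and 34.7 against 7.10 and 92.3 in the CD150-high CD48-low and 1.84 and 17.1 in the CD48-high cells. The CLCA3A1 tag, which the gate did not use, had medians of 5 and 43 tags in the gate against 25 and 214 in the CD150-high CD48-low and 9 and 16 in the CD48-high cells.

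To place single cells between the other gates, 100 genes highest in the CD150-high CD48-low gate and 100 highest in the CD48-high cells were chosen. They were chosen in 1 library without the CD150-low CD48-low cells and read in the other. The score was the share of the former among a cell's UMIs on all 200 genes. Each library thus had its own set of genes, so the scores of the 2 libraries are not on the same scale. With suffix 1 the median of the gate was 50.8% (47.4 to 52.4), against 73.8% in the CD150-high CD48-low and 25.5% in the CD48-high cells. That is 47.7% of the way from the former to the latter. With suffix 2 the median was 85.4% (84.2 to 86.8) against 90.8% and 35.2%, which is 9.69% of the way. This place depended on the gate: with CD150-low set under the 50th percentile it was 34.0% of the way with suffix 2, and with tags taken relative to unmapped tags 4.16%. In the gate 105 of 204 cells (51.5%) and 224 of 250 cells (89.6%) lay on the CD150-high CD48-low side of the midpoint, with 55 and 17 cells within 5 points of it. The score is a continuous range and not a cell type.

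**Figure D4:**
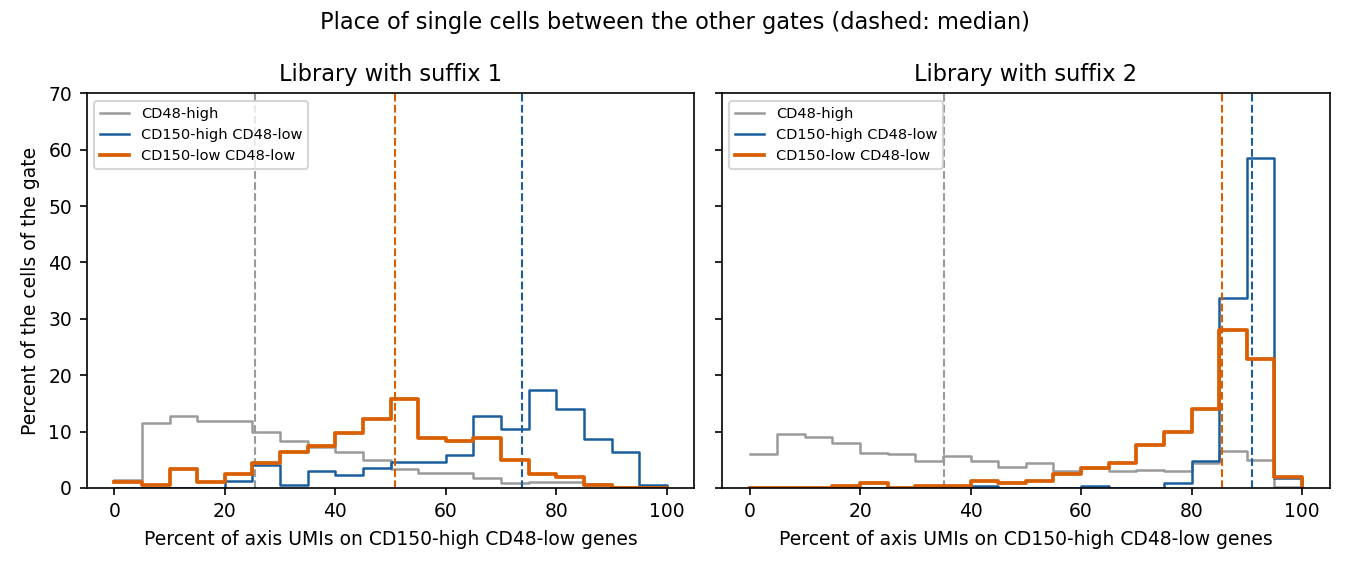
Share of axis UMIs on genes of the CD150-high CD48-low gate (x axis, percent) for the cells of each gate (y axis, percent of the gate's cells, bins of 5 points), with medians dashed. With suffix 1 the orange gate has its median at 50.8%, between the other medians, and with suffix 2 at 85.4%, beside the blue median of 90.8%.

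The genes did not all lie at the same point of the way. For 199 genes at least 1.5-fold higher in the CD150-high CD48-low gate than in the CD48-high cells in both libraries, the gate stood at a median of 50.9% of the log2 distance towards the CD48-high level with suffix 1 and 24.7% with suffix 2. For 474 genes higher in the CD48-high cells it stood at 18.4% and 22.2%. Not all of these genes lay between the other gates. Of the 474, 151 with suffix 1 and 34 with suffix 2 lay below 0%, that is, past the CD150-high CD48-low level, and 22 and 0 lay over 100%. Of the 199, 11 and 29 lay below 0% and 10 and 1 over 100%. With suffix 1 the quartiles of the 474 genes were -4.88% and 49.95% and that of the 199 from 33.7% and 69.8%.

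Within the gate the cells were then split into 3 nearly equal terciles by their CD150 tag. With suffix 1 the terciles covered 0 to 2, 3 to 8 and 9 to 39 tags, and with suffix 2 they covered 0 to 39, 40 to 161 and 166 to 406. Cd34 was at 567, 454 and 407 CPM from the lowest to the highest tercile with suffix 1 and at 202, 112 and 59.7 with suffix 2. The highest tercile held 0.717-fold (0.621 to 0.828) and 0.296-fold (0.216 to 0.401) the Cd34 of the lowest. Flt3 was at 205, 154 and 92.7 and at 28.3, 11.1 and 12.8, with ratios of 0.451 (0.339 to 0.596) and 0.451 (0.208 to 0.921). Both genes were lower in the highest than in the lowest tercile in each library, also with each tercile's top cell left out, with ratios of 0.705 and 0.273 for Cd34 and 0.447 and 0.38 for Flt3.

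Plac8 was also lower in the highest tercile than in the lowest, with ratios of 0.630 (0.533 to 0.745) and 0.330 (0.236 to 0.454). Vwf, the von Willebrand factor of platelet-biased stem cells, was at 1.23, 1.1 and 9.89 CPM with suffix 1 and at 5.25, 19.2 and 52.2 with suffix 2. With suffix 1 these levels rested on 1, 1 and 8 UMIs, and the interval of the ratio was 1.08 to 357. Procr was at 93.5, 112 and 111 and at 168, 193 and 238, so that only with suffix 2 did the interval of its ratio, 1.15 to 1.74, lie above 1. Hlf was at 721, 621 and 622 and at 407, 474 and 374.

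**Figure D5:**
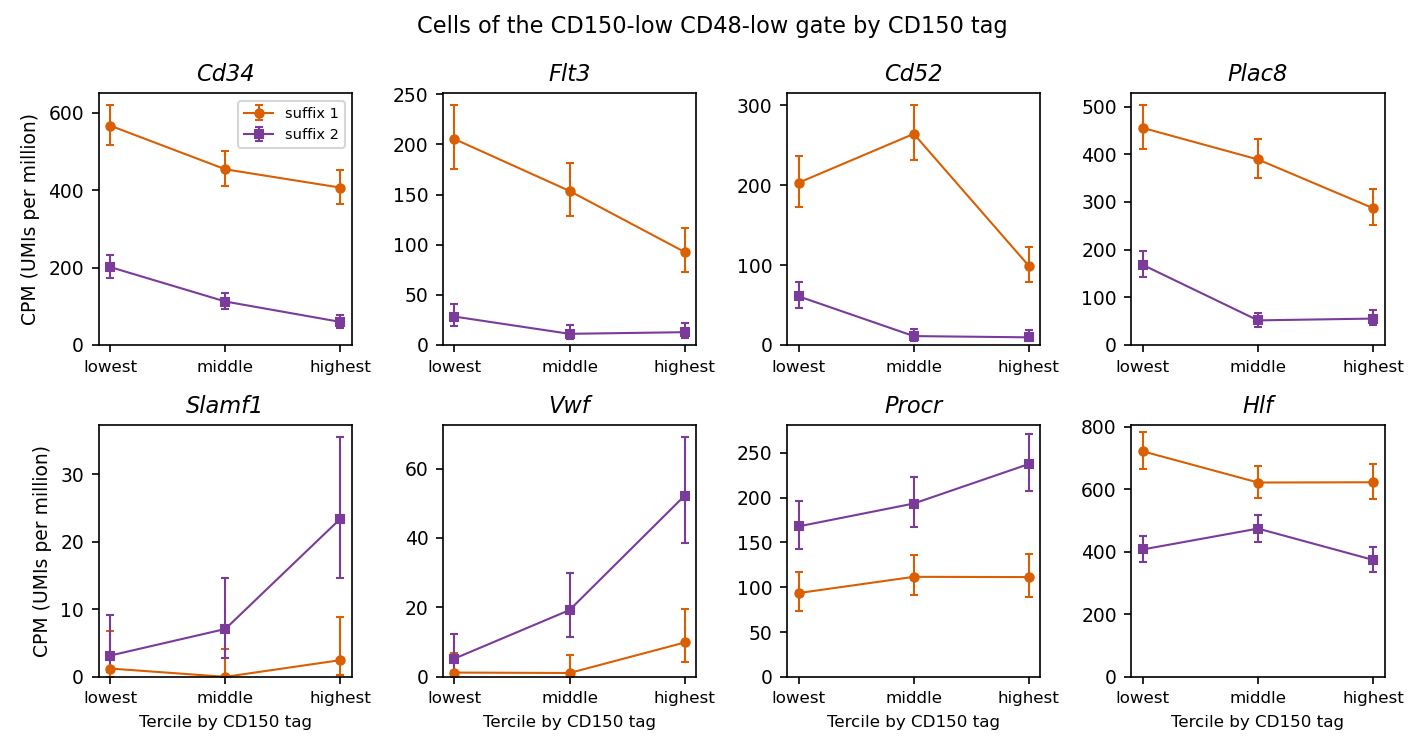
Level of 8 genes in CPM (y axis) in the terciles of the gate by CD150 tag (x axis), with exact 95% Poisson intervals, for each library. Cd34 goes from 567 to 407 CPM with suffix 1 and from 202 to 59.7 with suffix 2 between the lowest and the highest tercile. Vwf goes from 1.23 to 9.89, on 1 and 8 UMIs, and from 5.25 to 52.2.

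The terciles also differed in other values. The median of unmapped tags was 19, 20 and 19 with suffix 1 and 7, 10 and 15 with suffix 2, and the median of CD48 tags was 159, 156.5 and 130 and 27, 21 and 21. The median position score was 44.4%, 52.2% and 54.7% with suffix 1 and 77.1%, 85.8% and 89.1% with suffix 2. The part of the unmapped and CD48 tags in these differences was not tested.

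Markers of other cells were summed in each gate. Of 11 markers of mature B and plasma cells, 6 with suffix 1 (Ms4a1, Ighd, Cd22, Pax5 and Ighg2b among them) and 5 with suffix 2 were at 0. Their sum with suffix 1 was 7416 CPM with the immunoglobulin-rich cell and 45.4 without it, against 48 in the CD150-high CD48-low and 458 in the CD48-high cells (53.7 without such cells). With suffix 2 it was 133 against 135 and against 5033 (114 without such cells). Of 12 T and NK cell markers 9 and 11 were at 0, Cd3e, Trac and Ncr1 among them, with sums of 7.12 and 4.51 CPM in the gate, 6.22 and 5.13 in the CD150-high CD48-low and 22.0 and 14.9 in the CD48-high cells. Of 8 erythrocyte markers 4 and 2 were at 0, and their sum was 100.9 and 245 against 57.3 and 114 in the CD150-high CD48-low and 48.7 and 60.4 in the CD48-high cells. With each marker's top cell left out of each gate it was 88.7 and 104.9 against 48.4 and 101.2 and against 46.8 and 58.3, so that with suffix 2 the excess over the CD150-high CD48-low gate rested on single cells. Hbb-bt, a beta globin, was at 74.8 and 96.2 CPM in the gate, 26.2 and 72.0 in the CD150-high CD48-low and 25.2 and 33.8 in the CD48-high cells. One cell held 98.1% of the gate's Hbb-bs UMIs with suffix 2, and one cell held 14.3% and 27.1% of its Hbb-bt UMIs.

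Of 10 mast cell and basophil markers 7 and 6 were at 0 (Mcpt8, Cma1 and Fcer1a among them), and the sum, carried by Kit and Gata2, was 223 and 315 against 307 and 341 in the CD150-high CD48-low gate and 204 and 246 in the CD48-high cells. Of 14 neutrophil and macrophage markers 3 and 5 were at 0, with sums of 309 and 306 against 331 and 278 and against 243 and 266. Of 14 endothelial and stromal markers 6 and 7 were at 0, Cdh5 and Plvap among them, with sums of 136 and 153 against 159 and 155 and against 113 and 119. Of 9 markers of innate lymphoid precursors 3 and 4 were at 0, with sums of 125 and 161 against 131 and 164 and against 105 and 124. The part of other cells in the results was not tested beyond leaving out the immunoglobulin-rich cells, after which 54 and 17 genes were higher and lower than in the CD150-high CD48-low gate and 82 and 314 than in the CD48-high cells.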

How the data were processed

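LSK cells of 1 old and 1 young sample were stained with tagged antibodies, and droplet 3′ libraries were made. The authors counted UMIs with Cell Ranger 3.1.0 (mm10, GRCm38), joined the libraries with its depth-equalising aggregation and deposited raw counts per gene and cell. The deposited tag table holds log10 tag counts, which were raised to whole tags, with minus infinity read as 0. Cells under 10% mitochondrial UMIs with over 1500 genes were kept, as in the study. Of 4688 cells 4068 were kept and 3986 had tags.

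UMIs were summed per gate and barcode suffix and given as CPM, and log2 ratios had 10 CPM added. Intervals were exact Poisson, conditional binomial, Clopper-Pearson or order-statistic. Doublets were called with scrublet in scanpy 1.11.5; 0 lay in the gate. Calling was tested on simulated counts. Other gates, filters, folds, depths and single libraries were tried as alternatives. Named genes were the 12 at each end of each comparison, preset genes, the 4 highest of each list and its called members; genes outside both gates at 1.2-fold were added after values were seen. Members and gene lists were chosen with earlier results of these data known. Counts were made on 3′ ends, so levels are compared within a gene only. Some genes are not reported here.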

Additional observations from a re-analysis of the deposited data

Results flagged for a closer look

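Genes that stood at least 1.5-fold apart in opposite directions in the 2 libraries were looked at again; the difference between the libraries was not tested for any of them. Pf4, platelet factor 4, had a log2 ratio to the CD150-high CD48-low gate of -0.64 with suffix 1 and 0.84 with suffix 2, from 50 and 122 UMIs in the CD150-low CD48-low gate, with at most 9.84% of them in one cell.

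Against the CD48-high cells 4 genes were of this kind. Ighm had log2 ratios of 2.88 and -4.66, Jchain 1.5 and -2.27 and Slpi 3.84 and -1.88, with 98.7%, 99.5% and 99.6% of the gate's UMIs with suffix 1 in 1 cell. With suffix 2, 10 of the CD48-high cells had over 5% of their UMIs on immunoglobulin genes. Ctss, the lysosomal protease cathepsin S, had 0.86 and -0.87, with 16.4% and 8.33% in one cell.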

How the results depend on the processing

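The alternatives recomputed the counts of genes past the fold, the mean log2 ratios of Cd34, Procr and Flt3 over both libraries, the place between the gates and the list sums. Of 240 such values for the first 3 kinds, 160 stayed within the tolerance, 80 moved past it and 0 changed direction. The tolerance was 1.5-fold for a count and otherwise the mean distance from the centre of the 95% counting interval to its ends. A change of direction could be recorded only for a log2 ratio of at least 1.5-fold. Some of the 160 could not have moved. The filter on low genes cannot change the Cd34, Procr and Flt3 ratios. CD48-high at the 50th percentile, or leaving out doublets, cannot change those ratios to the CD150-high CD48-low gate. In the counts, given as higher and lower, the values against the CD150-high CD48-low gate (51 and 16) were 126 and 30 with 1 CPM added, 8 and 7 with 50 CPM added, 25 and 3 with a filter at 50 CPM and 9 and 6 at a fold of 2. They were 108 and 75 with CD150-low set under the 50th percentile, 10 and 1 with tags taken relative to unmapped tags, 141 and 103 with suffix 1 alone and 161 and 41 with suffix 2 alone, and 48 were lower with no filter on low genes. Against the CD48-high cells (80 and 317) they were 17 and 110 with 50 CPM added, 34 and 132 with a filter at 50 CPM, 8 and 131 at a fold of 2, 32 and 41 relative to unmapped tags and 280 and 578 with suffix 2 alone. Higher genes there numbered 172 with 1 CPM added, 170 with CD48-high set at or above the 50th percentile and 52 with each cell counted equally. Against both other gates (0 and 0) they were 2 and 1 with CD150-low under the 50th percentile, 11 and 9 with suffix 1 alone, 6 and 1 with suffix 2 alone and 20 and 7 at a fold of 1.2, chosen after seeing the data. Higher genes were 2 with CD48-low at or under the 15th percentile and 1 each with no filter or without the lowest 10% of unmapped tags, and 1 was lower with 1 CPM added.

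The Cd34 ratio to the CD150-high CD48-low gate (log2 1.31) was 1.01 with 50 CPM added, 1.8 with CD150-low under the 50th percentile and 0.88 relative to unmapped tags. Its ratio to the CD48-high cells (-0.95) was -0.81 with 50 CPM added, -0.45 with CD150-low under the 50th percentile, -1.15 with CD48-low at the 15th, -1.10 with CD48-high at the 50th, -1.37 relative to unmapped tags, -1.12 without the lowest 10% of unmapped tags, and -0.17 and -1.72 in the single libraries. Procr to the CD150-high CD48-low gate (-0.20) was -0.41 with CD150-low under the 50th percentile, and to the CD48-high cells (1.24) it was 0.89 with 50 CPM added, 1.03 with CD150-low under the 50th percentile, 1.70 with CD48-high at the 50th and 1.04 with each cell counted equally. Flt3 to the CD150-high CD48-low gate (1.98) was 2.99 and 1.02 with 1 and 50 CPM added and 2.79 and 1.18 in the single libraries, and to the CD48-high cells (-1.43) it was -0.91 with 50 CPM added, -0.93 with CD150-low under the 50th percentile and -0.50 and -2.35 in the single libraries.

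The percent of the way to the CD48-high cells (47.7 with suffix 1) was 34.8 with 50 CPM added, 68.2 with no filter, 32.5 with a filter at 50 CPM, 55.0 with CD150-low under the 50th percentile, 42.1 with CD48-low at the 15th, 58.0 relative to unmapped tags, 60.0 without the highest 10% of mitotic share, and 63.7 and 34.2 with 30 and 300 genes at each end. With suffix 2 (9.69) it was 13.0 with no filter, 34.0 with CD150-low under the 50th percentile, 5.65 with CD48-low at the 15th, 4.16 relative to unmapped tags and 12.3 with 30 genes at each end. The cause of these moves was not tested.

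Of 704 list sums 517 stayed within that tolerance, 180 moved and 7 changed direction, on 2 lists. Part of the 517 could not have moved. The sums had no CPM added and took in all genes of a list, so the added CPM and the filter cannot change them. Another CD48-high threshold, or leaving out doublets, cannot change the sums relative to the CD150-high CD48-low gate. The mature B and plasma sum relative to the CD150-high CD48-low gate (log2 3.63) was -0.12 with CD48-low at the 15th percentile, -0.10 relative to unmapped tags, -0.048 without cells rich in immunoglobulin, -0.10 without the lowest 10% of unmapped tags and -0.015 with suffix 2 alone, and relative to the CD48-high cells (-0.61) it was 4.02 with suffix 1 alone. The erythrocyte sum relative to the CD150-high CD48-low gate (0.96) was -0.18 with stricter cell filters. No library could be left out as a replicate and no paired analysis was possible because each age had 1 library. Depth limits genes with few UMIs in the gate, such as Wwtr1 with suffix 1.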
